A study of Mus musculus with 32 samples.

Results

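The white and brown fat genes described here were Adipoq, Lep, Retn, Ucp1, Cidea, Plin1, Cidec, Fabp4, Thrsp and Car3, which are 10 of the 54532 genes in the deposited tables. They were chosen by name as genes of fat that could be attached to the kidney, with earlier results of these data known: Retn, Ucp1 and Thrsp were noted because their values were lower after cisplatin than at Day 0. The changes from Day 0 were therefore used to choose the genes and are given as a description, with no test. Kidneys of male and female wild-type C57BL/6 mice, 6 to 8 weeks old at purchase, were sequenced on 4 days, Day 0 before and Day 2, 3 or 5 following a single intraperitoneal injection of 20 mg/kg cisplatin, a DNA-damaging chemotherapy drug that injures the tubules of the kidney. There were 4 mice in each of the 8 groups and 1 library per mouse, 32 in all, and total counts lay between 16502107 and 35961325. The study calls the Day 0 mice healthy, whereas the labels give the Day 0 females a cisplatin treatment and the Day 0 males none. No genetic change or second agent was given to any group. The questions of the design were how kidney RNA changed over the days after cisplatin and whether the sexes differed.

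White adipocytes hold 1 large lipid droplet, store energy as triglyceride and secrete hormones, while brown adipocytes hold many small droplets and burn lipid for heat through the uncoupling protein of their mitochondria. The kidney sits in a fat pad and has fat around its hilum, and in mice the fat near the upper pole and hilum can contain brown adipocytes. In bulk RNA, fewer cells of a type and less RNA per cell cannot be told apart, and whether the RNA of these genes came from attached fat or from cells inside the kidney was not measured.

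Kidney markers were high in all groups. The 8 of them summed to 7059 to 9805 CPM (counts scaled to library size by the TMM method) in the Day 0 males and 7968 to 8799 CPM in the Day 0 females, against 2205 to 5808 CPM in the Day 5 males. Adipocyte-defining genes that were not used to choose the set (Cfd, Adrb3, Plin4, Adig, Lgals12, Trarg1, Nrg4 and Pparg) were all detected, with sums of 255 to 1377 CPM in the Day 0 males and 388 to 1011 CPM in the Day 0 females. Of the 6 brown adipocyte markers, Zic1 had at most 3 counts in every library. Some libraries stood apart. Counts of the mitochondrial genome made up 42.5% to 79.8% of the library in the Day 5 males and 9.3% to 77.9% in the Day 5 females, against 4.49% to 24.0% at Day 0 and 4.87% to 14.0% at Day 2 and Day 3. The library labelled male Day 5 mouse 1 had 4153 counts of Xist, the RNA of the inactive X chromosome of females, besides 387 counts of 4 Y-linked genes. Its label was thus not borne out by both, and several comparisons of the Day 5 males are also given without it. Traces of the other sex were found in more libraries: the 4 Day 0 females had 221, 5, 44 and 66 counts of the Y-linked genes, against 0 in the 12 later females, and Xist had 50 and 242 counts in male Day 0 mice 1 and 4 and 260, 89 and 59 counts in male Day 5 mice 2, 3 and 4, against 0 to 5 in the Day 2 and Day 3 males. Male Day 0 mouse 4 had the highest level of all 10 genes in its group, with a sum over the 10 genes of 3348 CPM, while the other 3 mice of the group lay between 601 and 698 CPM.

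To show what lies before these genes, the letters just upstream of 5 of them are given: Retn, Ucp1 and Thrsp, which were noted for lower values, Adipoq, the reference used for ratios below, and Plin1, whose window held a motif. Reference sequence was found for 7 of the 10 genes. Each stretch is the part of the 250 bases before the RefSeq start (GRCm38.p6) that lies outside the gene as annotated in the deposited tables, written 5′ to 3′ on the gene's strand, with motif matches in capitals.
Ucp1, chr8:83290098-83290347, plus strand: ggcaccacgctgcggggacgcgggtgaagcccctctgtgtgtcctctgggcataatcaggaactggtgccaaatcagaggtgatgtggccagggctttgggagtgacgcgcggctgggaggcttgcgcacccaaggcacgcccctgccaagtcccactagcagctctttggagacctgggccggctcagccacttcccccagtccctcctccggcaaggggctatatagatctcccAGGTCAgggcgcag
Retn, chr8:3655520-3655769, plus strand: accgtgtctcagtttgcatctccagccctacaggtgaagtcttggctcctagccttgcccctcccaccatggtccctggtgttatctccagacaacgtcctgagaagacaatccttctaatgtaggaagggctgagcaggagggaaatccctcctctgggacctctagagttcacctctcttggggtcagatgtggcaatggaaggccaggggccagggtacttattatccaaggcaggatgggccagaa
Thrsp, chr7:97417731-97417800, minus strand: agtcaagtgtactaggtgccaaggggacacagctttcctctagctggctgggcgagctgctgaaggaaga
Adipoq, chr16:23146286-23146535, plus strand: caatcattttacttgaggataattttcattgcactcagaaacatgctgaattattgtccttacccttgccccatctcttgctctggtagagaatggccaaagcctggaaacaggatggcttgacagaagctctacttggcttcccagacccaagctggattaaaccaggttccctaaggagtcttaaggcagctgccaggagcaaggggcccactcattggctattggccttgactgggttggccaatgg
Plin1, chr7:79732904-79733026, minus strand: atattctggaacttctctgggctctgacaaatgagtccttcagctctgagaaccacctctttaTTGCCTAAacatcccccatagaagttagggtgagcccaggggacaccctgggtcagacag
In the full windows of 250 bases, 3 motifs were searched on both strands: the TATA box TATAAA, the nuclear receptor half-site AGGTCA, whose class includes PPAR-gamma, and the core TTGCNNAA bound by C/EBP factors, and no matches overlapped. AGGTCA lay 14 bases before the start of Ucp1 and in no other window of these genes, while 14% of all 32851 windows of this length held it. TTGCNNAA was found in the windows of Lep, Plin1 and 1 of 2 starts of Cidec, against 9.56% of all windows, and Plin1 held it both 187 and 58 bases before its start. TATAAA was in none of the 8 windows and in 12.4% of all. These matches describe letters only.

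Levels of different genes were compared per length. In the Day 0 females the mean FPKM (± SD, n = 4), counts per kb of gene scaled to an effective library size, was 110.5 ± 73.5 for Car3, 89.6 ± 35.4 for Thrsp and 76.8 ± 17.6 for Fabp4. Ucp1, Retn and Adipoq followed with 45.5 ± 13.2, 43.4 ± 18.3 and 43.2 ± 17.4 FPKM, which lay well within each other's spread. Cidec and Cidea had 32.9 ± 23.9 and 31.8 ± 13.2 FPKM and Plin1 11.3 ± 9.95 FPKM. Lep was the lowest with 1.21 ± 0.858 FPKM, and its counts per library ran from 12 to 275 over the 32 libraries. In the Day 0 males Car3 was highest with 126 ± 132 FPKM and Lep lowest with 1.51 ± 1.68 FPKM, and without male Day 0 mouse 4 these were 60.4 ± 6.87 and 0.675 ± 0.305 FPKM (n = 3). Retn was the fifth and Cidec the seventh gene in this order in females and in males without male Day 0 mouse 4, whereas with that mouse they were the eighth and the fourth in males.

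Of the adipokines, Adipoq (chr16:23146536-23158028 in GRCm38) encodes adiponectin, the hormone that adipocytes secrete in the largest amounts. The CPM of Adipoq in the 4 male mice were 32.6, 32.5, 41.8 and 119.98 at Day 0, 26.1, 33.1, 27.3 and 32.5 at Day 2, 18.7, 17, 19.2 and 21.6 at Day 3, and 51.1, 211, 151 and 102 at Day 5. In the 4 female mice they were 42.8, 55.7, 45.6 and 95.2 at Day 0, 36.1, 25.5, 40.6 and 52.7 at Day 2, 31.4, 42.4, 51.6 and 29.5 at Day 3, and 73.4, 20.9, 47 and 49.9 at Day 5. The Day 3 males formed the lowest group and overlapped no other group of males, while the female groups overlapped at all 4 days. Of all genes tested, 17.4% had every Day 3 male below every Day 0 male, and 3.12% had every Day 3 male below every Day 2 male. On the log2 scale the difference from Day 0 was -0.92 ± 0.41 (SE) at Day 2, -1.57 ± 0.43 at Day 3 and 1.26 ± 0.53 at Day 5 in males. Leaving out male Day 0 mouse 4 gave -0.25 ± 0.16, -0.90 ± 0.14 and 1.90 ± 0.45, and without the library labelled male Day 5 mouse 1 the last was 1.52 ± 0.49. In females it was -0.63 ± 0.31, -0.64 ± 0.29 and -0.33 ± 0.37 on the same days. Ordered by median CPM, the 8 groups ran from the Day 5 males down to the Day 3 males, and the only neighbours in that order that did not overlap were the Day 2 and Day 3 males.

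Retn (chr8:3655770-3660110) encodes resistin, which in mice is secreted by white adipocytes. The CPM of Retn in the 4 male mice were 17.4, 20.4, 37.5 and 73.2 at Day 0, 8.45, 12.1, 7.67 and 7.88 at Day 2, 6.54, 3.2, 4.33 and 5.29 at Day 3, and 37.5, 241, 79.2 and 105 at Day 5. In the 4 female mice they were 34.6, 78.1, 99.3 and 61.4 at Day 0, 15.2, 9.98, 16.8 and 22.5 at Day 2, 11, 27.5, 20.4 and 11.9 at Day 3, and 47.3, 10.6, 45.2 and 21.5 at Day 5. Every mouse of Day 2 and Day 3 was below every Day 0 mouse of its sex, while the Day 5 males, at 37.5 to 241 CPM, overlapped with the Day 0 males. Such a separation below Day 0 held for 12% and 17.4% of all genes tested in the Day 2 and Day 3 males. In the Day 2 and Day 3 females it held for 6.64% and 9.16%. The log2 difference from Day 0 was -2.03 ± 0.44 at Day 2, -2.95 ± 0.49 at Day 3 and 1.71 ± 0.61 at Day 5 in males, and -2.09 ± 0.35, -1.96 ± 0.39 and -1.13 ± 0.45 in females. Leaving out male Day 0 mouse 4, the male values were -1.47 ± 0.30, -2.38 ± 0.34 and 2.25 ± 0.61, and without the library labelled male Day 5 mouse 1 the last was 2.01 ± 0.55.

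Lep (chr6:29060220-29073877) encodes leptin, the satiety hormone of fat. The CPM of Lep in the 4 male mice were 2.6, 3.25, 1.13 and 13.7 at Day 0, 1.43, 0.453, 0.963 and 1.44 at Day 2, 0.667, 0.54, 0.455 and 1.01 at Day 3, and 4.53, 8.61, 8.21 and 4.91 at Day 5. In the 4 female mice they were 6.06, 2.69, 0.734 and 7.01 at Day 0, 2.15, 3.46, 2.14 and 1.98 at Day 2, 3.17, 6.14, 3.51 and 1.54 at Day 3, and 2.23, 1.56, 5.04 and 5.57 at Day 5. The 4 Day 2 males and the 4 Day 3 males were below all Day 2 and Day 3 females, respectively. The same held for 3.68% and 10.8% of all genes tested at these days. Within females the 4 days overlapped throughout. The Day 0 level itself varied 12.2-fold between the highest and lowest male and 9.54-fold between females, and the log2 difference from Day 0 was -2.94 ± 0.76 in the Day 3 males and -0.22 ± 0.64 in the Day 3 females. Without male Day 0 mouse 4 the male value was -1.78 ± 0.45, and without female Day 0 mouse 4 the female value was 0.16 ± 0.67.

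**Figure D1:**
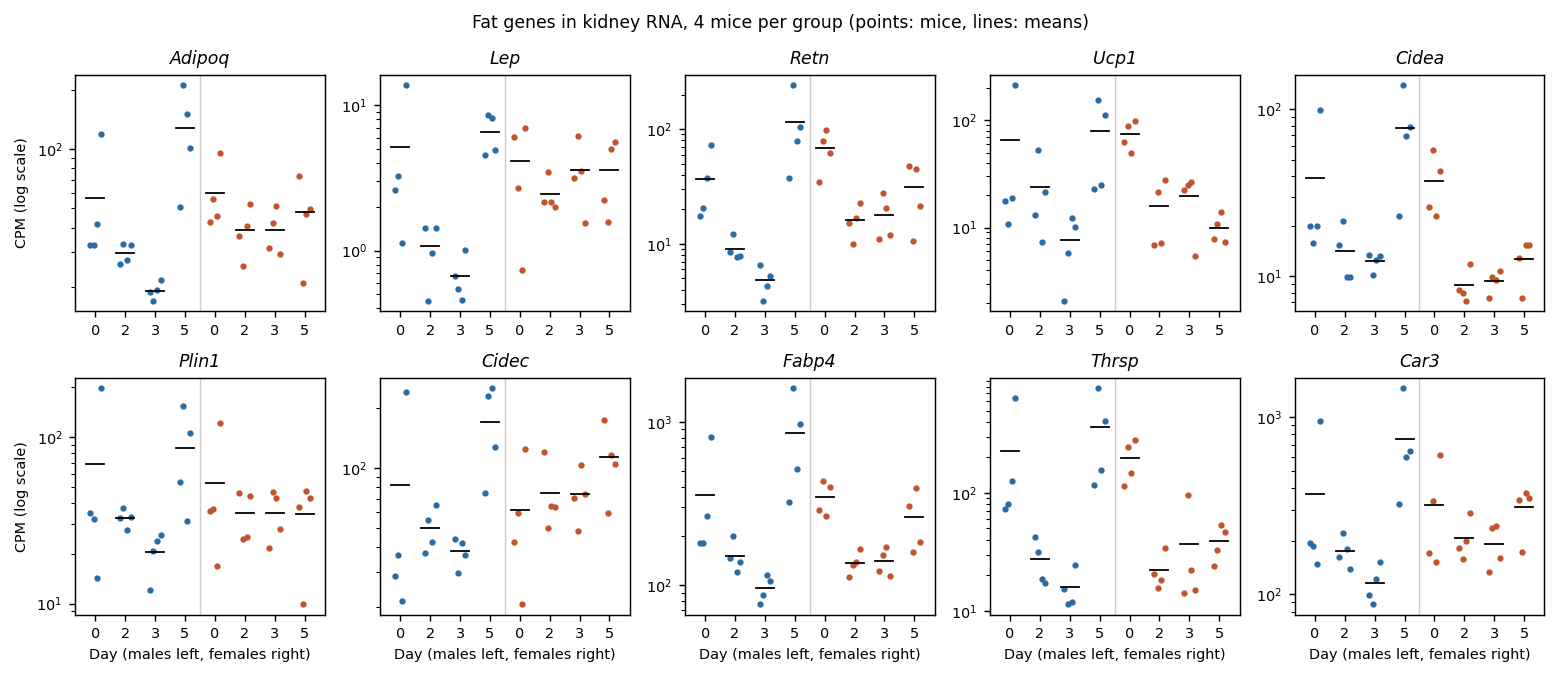
Levels of the 10 genes in CPM (log axes) in each mouse, with males in blue and females in red, days on the x axis, and black lines for the arithmetic means of 4 mice. Male Day 0 mouse 4 is the highest Day 0 male in every panel, the Day 3 males are low, and the Day 5 males are above all Day 3 males for each gene.

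Of the brown fat genes, Ucp1 (chr8:83290352-83298452) encodes the uncoupling protein that lets brown fat mitochondria make heat. The CPM of Ucp1 in the 4 male mice were 17.8, 10.9, 18.8 and 212 at Day 0, 13.1, 52.6, 7.35 and 21.6 at Day 2, 2.08, 5.83, 12.3 and 10.1 at Day 3, and 23.1, 155, 25.1 and 112 at Day 5. In the 4 female mice they were 62.9, 88.8, 49.9 and 97.8 at Day 0, 6.93, 21.2, 7.25 and 28.1 at Day 2, 22.3, 24.9, 26.4 and 5.38 at Day 3, and 7.78, 10.8, 14 and 7.37 at Day 5. All 12 females given cisplatin were below all 4 Day 0 females, with a log2 difference from Day 0 of -2.25 ± 0.46 at Day 2, -1.94 ± 0.45 at Day 3 and -2.91 ± 0.31 at Day 5. Separation below Day 0 held for 6.64%, 9.16% and 3.63% of all genes tested in the Day 2, Day 3 and Day 5 females. The highest female of any later day had 28.1 CPM, and the lowest at Day 0 had 49.9 CPM. The males spread much more: their Day 0 values differed 19.5-fold because mouse 4 stood at 212 CPM, and no later group of males was separate from Day 0. The log2 difference in the Day 3 males was -3.10 ± 1.05 with all mice and -1.06 ± 0.52 without male Day 0 mouse 4. All neighbours among the 8 groups ordered by median Ucp1 overlapped.

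Cidea (chr18:67343564-67367794) encodes a lipid droplet protein of brown adipocytes. The CPM of Cidea in the 4 male mice were 20.01, 15.9, 19.9 and 99.6 at Day 0, 15.4, 21.4, 9.87 and 9.87 at Day 2, 13.5, 10.2, 12.5 and 13.2 at Day 3, and 23, 139, 69.6 and 78.7 at Day 5. In the 4 female mice they were 26.1, 57.3, 23.1 and 42.8 at Day 0, 8.3, 7.97, 7.17 and 11.9 at Day 2, 7.38, 9.97, 9.46 and 10.8 at Day 3, and 12.8, 7.46, 15.3 and 15.4 at Day 5. Every Day 2, Day 3 and Day 5 female was below every Day 0 female, with log2 differences of -2.09 ± 0.32, -2.01 ± 0.30 and -1.55 ± 0.34. This separation held for 6.64%, 9.16% and 3.63% of all genes tested. In males the Day 3 range lay below that of Day 0 (-1.66 ± 0.59), as for 17.4% of all genes tested, and without male Day 0 mouse 4 the difference was -0.59 ± 0.15.

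Thrsp (chr7:97412938-97417730), the thyroid hormone responsive protein Spot 14, promotes fatty acid synthesis in fat and liver. The CPM of Thrsp in the 4 male mice were 73.6, 80.03, 127 and 634 at Day 0, 42.3, 31.8, 18.5 and 17 at Day 2, 15.2, 11.5, 11.9 and 24.5 at Day 3, and 118, 771, 158 and 407 at Day 5. In the 4 female mice they were 114, 246, 148 and 279.98 at Day 0, 20.5, 15.5, 18.1 and 34.1 at Day 2, 14.2, 95.3, 22.1 and 15.1 at Day 3, and 23.9, 32.9, 53 and 46.9 at Day 5. Its values after cisplatin lay farthest below Day 0 among the 10 genes, in both sexes, on Day 2 and on Day 3, with log2 differences of -3.06 ± 0.74 and -3.87 ± 0.78 in males and -3.17 ± 0.37 and -2.44 ± 0.65 in females. If male Day 0 mouse 4 was left out, the male values were -1.76 ± 0.35 and -2.57 ± 0.32. Neither range at these days overlapped with Day 0 in the same sex. Separation below Day 0 held for 12% and 17.4% of all genes tested in males and 6.64% and 9.16% in females. In the Day 5 females it held for 3.63%. At Day 5 the 4 females, with 23.9 to 53 CPM, were still below the 4 Day 0 females, while the 4 males, with 118 to 771 CPM, were not. Female Day 3 mouse 2 had 95.3 CPM and the other 3 mice of its group 14.2 to 22.1 CPM.

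Of the genes of lipid droplets and fatty acid binding, Fabp4, the fatty acid binding protein of adipocytes that is also made by endothelial cells and macrophages, had 266 to 431 CPM in the Day 0 females, 112 to 167 CPM at Day 2, 114 to 171 CPM at Day 3 and 161 to 392 CPM at Day 5. The Day 2 and Day 3 females were below all Day 0 females, which held for 6.64% and 9.16% of all genes tested. Plin1, the coat protein of adipocyte lipid droplets, had 16.8 to 121 CPM in the Day 0 females, and all later female groups overlapped with them. Cidec, which lets droplets fuse into a large one, was the 1 gene with a positive difference from Day 0 in females at each day, 0.27 ± 0.48, 0.25 ± 0.48 and 0.87 ± 0.49 on the log2 scale, but its ranges overlapped with Day 0 throughout. Without female Day 0 mouse 3 it turned negative at Day 2 and Day 3. Without female Day 0 mouse 4 the values were 0.87 ± 0.39, 0.84 ± 0.37 and 1.47 ± 0.41. In males Cidec was lower than Day 0 by a log2 difference of -1.11 ± 0.73 at Day 3 with all mice and higher by 0.41 ± 0.21 without male Day 0 mouse 4. Car3, carbonic anhydrase 3, which is abundant in adipocytes, muscle and liver, had 149 to 951 CPM in the Day 0 males and 88.5 to 152 CPM in the Day 3 males, which overlapped. The 951 CPM was male Day 0 mouse 4. The log2 difference at Day 3 was -1.69 ± 0.60 with that mouse and -0.62 ± 0.20 without it. The Day 5 males had 324 to 1454 CPM, and every later female group overlapped with Day 0.

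Counting over the 10 genes, which all passed the filter on low counts in every comparison, 10 had a negative log2 difference from Day 0 in males at Day 2 and at Day 3, none did at Day 5, and 9 did in females at each day. Without male Day 0 mouse 4 the count was 6 in the Day 2 males, where Car3, Cidec, Plin1 and Ucp1 turned positive, and 9 in the Day 3 males. Without female Day 0 mouse 4 it was 8, 7 and 6 in the females of Day 2, Day 3 and Day 5. The calls (edgeR, adjusted p below 0.05 with a log2 fold change beyond 1.5 in size) belong to the contrasts that chose the genes, so they are stated only for reference. Retn was lower in the Day 2 males, which is 1 gene beside 0.199% of all tested genes called lower and 0.517% called higher. In the Day 3 males 5 genes were lower (Adipoq, Fabp4, Lep, Retn and Thrsp), beside 1.84% of all genes lower and 1.87% higher. None was called in the Day 5 males, beside 3.69% lower and 3.83% higher. Without the library labelled male Day 5 mouse 1 Retn was called higher there. The share of all genes called in that comparison ran from 3.28% to 16.5% over the alternatives. In females 4 genes were lower at Day 2 (Cidea, Retn, Thrsp and Ucp1), beside 0.883% lower and 0.532% higher of all genes. At Day 3 they were 3 (Cidea, Retn and Ucp1), beside 1.97% lower and 0.51% higher. At Day 5 they were 2 (Thrsp and Ucp1), beside 0.0615% lower and 0.166% higher. Without male Day 0 mouse 4 the Day 3 males had 3 genes called lower, beside 2.76% of all genes, and the Day 5 males 8 called higher, beside 5.9% of all genes. Without female Day 0 mouse 1, the female with the most Y-linked counts, 3 genes were lower at Day 2 (0.136% of all genes), none at Day 3 (0%) and 2 at Day 5 (0.0299%), with edgeR, and leaving out 1 of several other mice moved the counts as well.

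**Figure D2:**
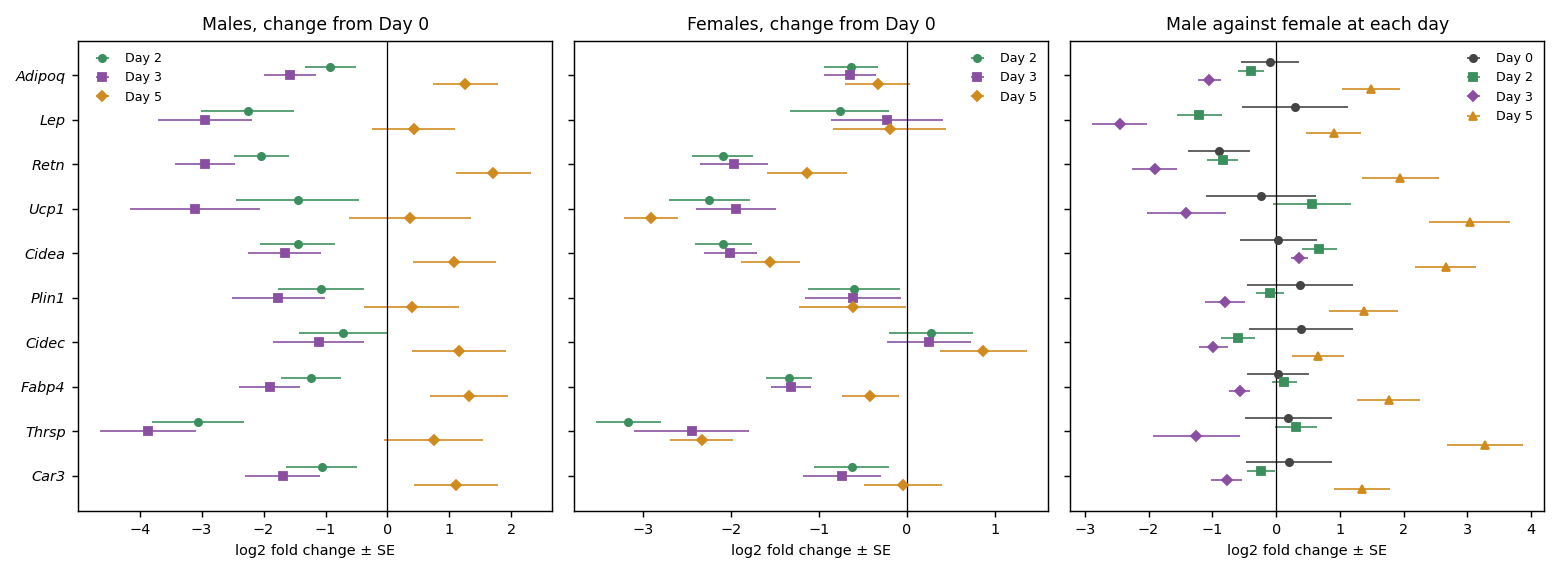
Log2 fold changes with standard errors of the 10 genes from Day 0 in males (left) and females (middle), and of males against females at each day (right), with days as symbols. The left panel shows Day 2 and Day 3 below 0 and Day 5 above 0 for all 10 genes, while in females Retn, Ucp1, Cidea and Thrsp are lowest.

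The comparison of Day 5 with Day 3 in males shares its Day 3 libraries with the changes that chose the genes, so it is described without a test. All 10 genes were higher at Day 5 than at Day 3 in males, and no Day 3 male reached the lowest Day 5 male for any of them, as was so for 16.3% of all genes tested. The log2 difference was 4.67 ± 0.56 for Retn and 4.62 ± 0.64 for Thrsp, followed by Ucp1 (3.47 ± 0.75) and Lep (3.36 ± 0.36). Fabp4, Adipoq, Car3 and Cidea differed by 3.23 ± 0.48, 2.84 ± 0.38, 2.80 ± 0.44 and 2.74 ± 0.45, and Cidec and Plin1 by 2.26 ± 0.36 and 2.16 ± 0.46. For reference, edgeR called all 10. Over all genes tested, 9.64% were called in this comparison. Without the library labelled male Day 5 mouse 1 the differences ran from 2.31 to 4.95, and all 10 were called as well, beside 16.8% of all genes. The difference came with other changes of the same libraries: mitochondrial counts were 42.5% to 79.8% at Day 5 and 11.3% to 12.6% at Day 3, the kidney markers summed to 2205 to 5808 CPM against 6048 to 9252, the 5 mesothelium markers to 41.8 to 266 CPM against 21.5 to 28.7, and the 9 skeletal muscle markers, of a tissue in which Car3 is abundant, to 24.5 to 176 CPM against 3.21 to 21.8. Their part in it was not tested.

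In females, the same step and the step before it share libraries with the choice too. Between Day 3 and Day 5 none of the 10 genes was called by edgeR, with 3 at an unadjusted p under 0.05 and none called by DESeq2 or limma, and their log2 differences ran from -0.98 for Ucp1 to 0.90 for Fabp4. Of all genes, edgeR called 0%, DESeq2 0.0953% and limma 0%. The share of all genes at an unadjusted p under 0.05 is not given here or below, so counts at that p lack a background. Between Day 2 and Day 3 edgeR called none in females, with 0 at an unadjusted p under 0.05, and none in males, with 7 at an unadjusted p under 0.05, and neither DESeq2 nor limma called any in either sex. In that step edgeR called 0% of all genes in either sex, DESeq2 0.271% in females and 0.117% in males, and limma 0.0118% and 0.00616%. The male log2 differences of Day 3 from Day 2 were all negative, from -1.64 for Ucp1 to -0.21 for Cidea, and for Adipoq, Retn, Plin1 and Fabp4 no Day 3 male reached the lowest Day 2 male, which held for 3.12% of all genes. Whether the step from Day 3 to Day 5 differed between the sexes was not tested as such.

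Males and females were compared at each day. This contrast did not choose the genes, but it uses the same libraries, so Retn, Ucp1 and Thrsp, the genes noted for lower values, are given in it as a description, without a p. At Day 3 Lep was lower in males than in females by a log2 fold change of -2.46 ± 0.44 (edgeR, adjusted p = 0.0058), in 4 of 4 males, and Retn differed by -1.91 ± 0.35, also with no overlap. These 2 genes were called by edgeR, beside 1.93% of all genes called. Every male was below every female at Day 3 for 10.8% of all genes tested. Other values separated the same groups, in males and females respectively: adipocyte-defining genes summed to 143 to 196 and 253 to 452 CPM, endothelial markers to 558 to 596 and 392 to 539 CPM, mesothelium markers to 21.5 to 28.68 and 28.72 to 38.5 CPM, and mitochondrial counts were 11.3% to 12.6% and 9.24% to 10.5%. Their part in the differences at Day 3 was not tested. Adipoq, Cidec, Fabp4 and Car3 also had an adjusted p under 0.05 at Day 3 (0.0054, 0.018, 0.037 and 0.0497), but their log2 fold changes of -1.05 ± 0.18, -0.99 ± 0.22, -0.57 ± 0.16 and -0.78 ± 0.24 were inside 1.5. Cidea, by contrast, was 0.36 ± 0.13 (adjusted p = 0.078). In the fit over all 8 groups neither Lep nor Retn was called at Day 3. At Day 2 edgeR and DESeq2 called none and limma 1, with 3 at an unadjusted p under 0.05 and 0.813% of all genes called by edgeR and 2.16% by limma. There Lep differed by -1.20 ± 0.36 (adjusted p = 0.14) and its groups did not overlap, as for 3.68% of all genes with males below females.

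At Day 0 none was called by edgeR or DESeq2, with 0 at an unadjusted p under 0.05 and 0.362% of all genes called. The log2 difference of Ucp1 was -0.23 ± 0.86 with all mice, -2.25 ± 0.32 without male Day 0 mouse 4 and -2.25 ± 0.56 with limma's sample weights, and it was called lower in males in the last 2, beside 0.412% and 3.07% of all genes called. Its levels were 10.9 to 18.8 CPM in the 3 other Day 0 males, 212 CPM in mouse 4 and 49.9 to 97.8 CPM in the females.

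At Day 5 all 10 genes were higher in males than in females on average, by log2 differences from 0.65 for Cidec to 3.27 for Thrsp, but edgeR called none. DESeq2 called 6 and limma 8, and the share of all genes called was 0.236% with edgeR, 3.24% with DESeq2 and 9.28% with limma. Of the 10, 8 had an unadjusted p under 0.05, with no share of all genes at that p given. Thrsp, Ucp1 and Cidea did not overlap between the sexes, which held for 4.13% of all genes in that direction, with differences of 3.27 ± 0.60, 3.03 ± 0.64 and 2.66 ± 0.48, the last at an adjusted p of 0.061 with edgeR. Without the library labelled male Day 5 mouse 1, edgeR called 7 genes (Adipoq, Car3, Cidea, Fabp4, Retn, Thrsp and Ucp1), beside 7.75% of all genes, with Thrsp at 3.61 ± 0.48 and Ucp1 at 3.40 ± 0.54. That library had the lowest level of the 4 Day 5 males for 9 of the 10 genes, the exception being Plin1. Other values moved with this sex difference: in the Day 5 males and females, respectively, the mesothelium markers summed to 41.8 to 266 and 19.5 to 35.9 CPM, the skeletal muscle markers to 24.5 to 176 and 15.8 to 33.1 CPM, and the kidney markers to 2205 to 5808 and 3781 to 7037 CPM. The adrenal cortex markers summed to 36.9 to 174 CPM in the males and 552 to 1459 CPM in the females, and mitochondrial counts were 42.5% to 79.8% and 9.3% to 77.9%. Of these, the mesothelium and adrenal cortex sums did not overlap between the sexes. Their part in the difference was not tested.

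The sex difference of the change from Day 0 was fitted as an interaction. It is built from the changes that chose the genes, so its calls are stated for reference and give no independent evidence. At Day 2 edgeR, DESeq2 and limma called none of the 10 genes, with 0 at an unadjusted p under 0.05, and the share of all genes called was 0% with edgeR, 0.0916% with DESeq2 and 2.15% with limma. At Day 3 edgeR and DESeq2 called none and limma 1, with 1 at an unadjusted p under 0.05 and 0.0114% of all genes called by edgeR and 1.58% by limma. At Day 5 edgeR called none, with 6 at an unadjusted p under 0.05 and 0.231% of all genes called, while DESeq2 called 4 and limma 7, beside 2.67% and 14.5% of all genes. The largest estimates there were Ucp1 (3.23 ± 1.16), Thrsp (3.04 ± 0.97) and Retn (2.81 ± 0.84), the genes noted for lower values. Without male Day 0 mouse 4, Cidea, Thrsp and Ucp1 were called (0.507% of all genes), and without the library labelled male Day 5 mouse 1, Cidea, Retn and Thrsp were called (4.93% of all genes), so which genes were called rested on which libraries were kept.

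The fat genes did not keep a fixed ratio to each other. As a measure within each library that needs no scaling between libraries, the counts of each gene were divided by those of Adipoq. In females the log2 ratio of Thrsp to Adipoq was 1.41, 2.14, 1.70 and 1.56 in the 4 Day 0 mice and -0.81, -0.71, -1.16 and -0.63 in the Day 2 mice, with means (± SD) of 1.70 ± 0.32 and -0.83 ± 0.23. In males the mean was 1.62 ± 0.55 at Day 0, -0.22 ± 0.70 at Day 2, -0.35 ± 0.39 at Day 3 and 1.28 ± 0.88 at Day 5. The ratio of Thrsp was separate from Day 0 in 5 of the 6 later groups, all but the Day 5 males. Retn over Adipoq went from -0.61 ± 0.32 at Day 0 to -1.74 ± 0.26 at Day 2 and -2.02 ± 0.37 at Day 3 in males, with no overlap, and was -0.28 ± 0.51 at Day 5. Without the library labelled male Day 5 mouse 1 the Day 5 means (n = 3) were 1.31 ± 1.08 for Thrsp and -0.23 ± 0.61 for Retn. In females Retn over Adipoq was 0.17 ± 0.79 at Day 0, -1.28 ± 0.06 at Day 2, without overlap, and -1.20 ± 0.39 and -0.72 ± 0.50 at Day 3 and Day 5, both overlapping with Day 0. These ratios share the libraries of the changes that chose the genes and carry no test.

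The brown fat genes differed from Adipoq in females. The log2 ratio of Ucp1 to Adipoq was 0.55, 0.67, 0.13 and 0.04 in the Day 0 females and -3.23, -0.95, -1.75 and -2.76 in the Day 5 females, with means of 0.35 ± 0.31 and -2.17 ± 1.02, and each of the 3 later female groups was separate from Day 0. Cidea over Adipoq was -0.70 ± 0.53 in the Day 0 females and -2.11 ± 0.34, -2.02 ± 0.41 and -1.83 ± 0.47 at the later days, again without overlap. In males Cidea over Adipoq stayed between -1.14 ± 0.53 and -0.64 ± 0.12 and overlapped with Day 0 at every day. Car3 over Adipoq had means between 2.26 and 2.77 over the 8 groups, and all its groups overlapped with Day 0. Cidec over Adipoq was above Day 0 on average in all 6 later groups and separate from it in the Day 5 females, at 1.28 ± 0.18 against -0.17 ± 0.66.

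**Figure D3:**
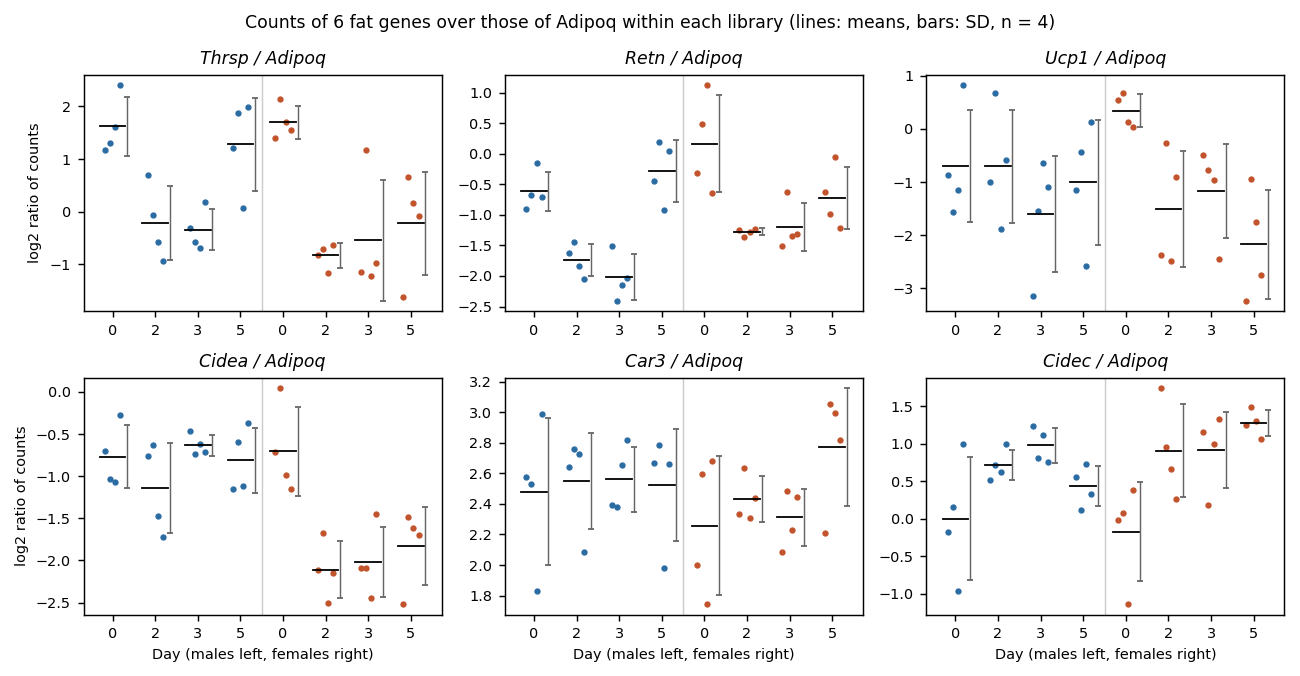
Log2 ratio of the counts of 6 genes to those of Adipoq (0.5 added to both) in each mouse, with black lines for means and grey bars for SD (n = 4). Thrsp and Retn are lower than Day 0 in both sexes at Day 2 and Day 3, Ucp1 and Cidea in females, while Car3 over Adipoq overlaps with Day 0 in every group.

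Between the sexes the log2 ratio of Ucp1 to Adipoq differed by -1.04 (male minus female) at Day 0, 0.81 at Day 2, -0.44 at Day 3 and 1.16 at Day 5. These are given without a test, since Ucp1 was noted for lower values in the same libraries. The group means were -0.69 ± 1.05 in males and 0.35 ± 0.31 in females at Day 0, and -1.01 ± 1.17 and -2.17 ± 1.02 at Day 5. Without the library labelled male Day 5 mouse 1 the difference at Day 5 was 1.21.

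Across mice of the same group, the fat genes rose and fell with Adipoq. After the group means were removed from log2 CPM over the 32 libraries, all 9 other genes correlated with Adipoq at a permutation p under 0.05 after adjustment over the 9 relations. Car3 was closest (Pearson r = 0.88, permutation p = 2e-05, adjusted p = 0.00018, Spearman rho = 0.88, permutation p = 1e-05, the smallest that the 100000 permutations can give). Cidec, Retn, Cidea and Fabp4 had r of 0.80, 0.80, 0.80 and 0.79 (rho 0.74, 0.71, 0.70 and 0.66), with permutation p of 0.00025, 5e-05, 0.00056 and 0.00035 for r. Plin1 and Thrsp followed with r of 0.70 and 0.62 (rho 0.68 and 0.57, permutation p 0.0038 and 0.0046 for r). Ucp1 (r = 0.54, rho = 0.49, permutation p = 0.014 and 0.012, adjusted 0.016 and 0.014) and Lep (r = 0.50, rho = 0.41, permutation p = 0.027 and 0.046, adjusted 0.027 and 0.046) were the loosest.

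The 2 libraries farthest from the median of Adipoq were male Day 0 mouse 4 and the library labelled male Day 5 mouse 1. Without them r was 0.82 for Car3, 0.73 for Retn, 0.45 for Thrsp, 0.36 for Lep and 0.34 for Ucp1. By day, Ucp1 had an r of 0.92 over the 8 libraries of Day 0, 0.40 over the 16 of Day 2 and Day 3 and 0.33 over the 8 of Day 5. Thrsp had 0.96, 0.46 and 0.46 over the same libraries. Over the 16 libraries of Day 2 and Day 3 alone, Lep, Ucp1, Cidea, Cidec and Thrsp no longer had a permutation p under 0.05, whereas Retn (0.79), Car3 (0.78), Fabp4 (0.65) and Plin1 (0.62) did. Among the 45 pairs of the 10 genes, Cidea with Car3 had the highest r (0.88) and Lep with Retn the lowest (0.17).

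**Figure D4:**
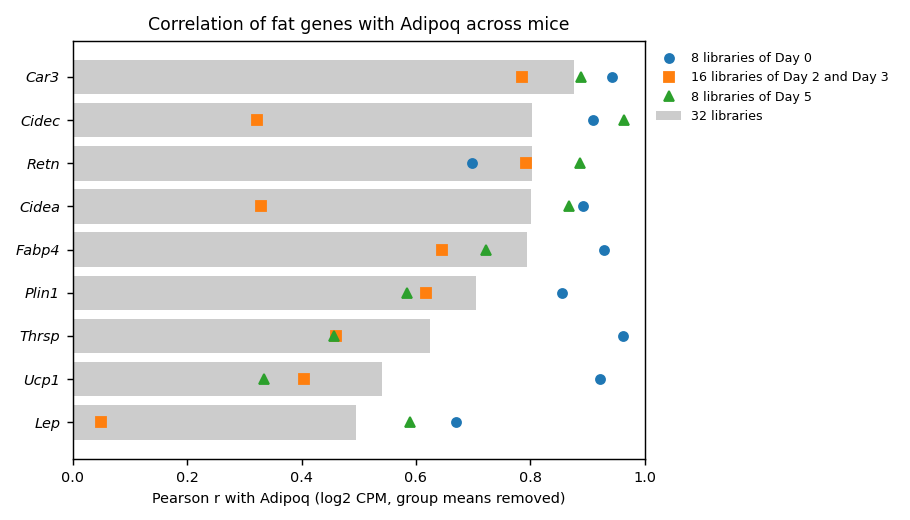
Pearson r of 9 genes with Adipoq on group-centred log2 CPM, as grey bars over all 32 libraries and as symbols over the libraries of Day 0, of Day 2 and Day 3, and of Day 5. Car3 has the longest bar (0.88) and Lep the shortest (0.50), and the symbols for Day 2 and Day 3 lie left of those for Day 0 for all genes but Retn.

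Of 15035 other protein-coding genes in the log2 CPM table, those most like Adipoq over the 32 libraries, by Pearson r after removal of the group means, included Cfd (r = 0.87), Aldh3b2 (r = 0.85), Cav1 (r = 0.83) and Clec3b (r = 0.82). Those most like Ucp1 were Clstn3 (r = 0.81), Plbd1 (r = 0.76), Fabp5 (r = 0.75), Agpat2 (r = 0.73) and Arxes2 (r = 0.73). Those most like Thrsp were Fasn (r = 0.93), Acaca (r = 0.90), Pygl (r = 0.89), Fabp5 (r = 0.87) and Plbd1 (r = 0.86), of which Fasn and Acaca encode the enzymes of fatty acid synthesis. Cfd, adipsin, is a secreted product of adipocytes. An r over 0.8 was reached by 9 genes with Adipoq, 1 with Ucp1 and 9 with Thrsp. These values share libraries and scaling and are descriptions.

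A list of 72 other fat genes, not used to choose the set, was counted in the fit over all genes. In the Day 3 males 10 of the 69 tested were lower than at Day 0 and 2 were higher, with a median log2 difference of -0.68 against 0.02 over all genes, beside 1.84% of all genes called lower and 1.87% higher. This count and the female counts below changed when single mice were left out, as given in the last section. In the Day 2 males edgeR called none of 71, while DESeq2 called 9 and limma 4, beside 2.22% and 3.33% of all genes. Of the 71, 26 had an unadjusted p under 0.05 with edgeR, with no share of all genes at that p given. In the Day 5 males 2 of 68 were higher, Lepr and Sncg, beside 3.83% of all genes. There, 16 of the list were called without male Day 0 mouse 4, beside 10.2% of all genes, and without the library labelled male Day 5 mouse 1, 4 of 69 were higher and 1 was lower, beside 5.47% and 6.52%. In females 4 of 71 were lower at Day 2, beside 0.883% of all genes, and 4 of 71 at Day 3, beside 1.97%. At Day 5, 1 was higher and 1 lower of 70, beside 0.166% and 0.0615% of all genes. The female medians were -0.42, -0.42 and -0.38, against 0.03 over all genes at each day. Between Day 3 and Day 5 in males, 26 of 69 rose and 1 fell, beside 6.39% and 3.25% of all genes, with a median of 0.86 against 0.02. Without the library labelled male Day 5 mouse 1, 28 rose and 2 fell, beside 16.8% of all genes called in either direction, against 9.64% with it. The list and the 10 genes were chosen with earlier results known.

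Within the list, the brown fat genes Cox8b and Cox7a1, muscle and brown fat forms of cytochrome c oxidase subunits, were called lower in 3 of the 6 comparisons with Day 0. Cox8b was -3.61 ± 0.49 (adjusted p = 0.0092) in the Day 2 females and -2.66 ± 0.72 (adjusted p = 0.032) in the Day 3 males with edgeR. Cox7a1 was -2.54 ± 0.47 (adjusted p = 0.035) in the Day 2 females and -2.38 ± 0.54 (adjusted p = 0.02) in the Day 3 males. The Day 3 male values of the list, here and below, include male Day 0 mouse 4 and are not given without it. The adipocyte-defining genes of that mouse summed to 1377 CPM, against 255 to 455 CPM in the other Day 0 males. Both were higher in males at Day 5 than at Day 3, by 3.83 ± 0.54 and 2.58 ± 0.47. The differences were 4.13 ± 0.32 and 2.81 ± 0.39 without the library labelled male Day 5 mouse 1. They are described without a test, as calls that use the same Day 3 libraries led to the naming of Cox8b and Cox7a1. Since muscle also expresses these 2 genes, the 9 skeletal muscle markers are given beside them: these summed to 38.3 to 257 CPM in the Day 0 females, 12.1 to 25.3 at Day 2 and 9.69 to 22.1 at Day 3, and to 26.8 to 139, 3.21 to 21.8 and 24.5 to 176 CPM in the males of Day 0, Day 3 and Day 5. Their part in the differences was not tested.

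Adig and Sncg were listed in a mixed role of transcription factors and adipocyte-restricted genes. Adig (adipogenin) was lower in the Day 3 males by -2.32 ± 0.53 (adjusted p = 0.02), in the Day 2 females by -2.21 ± 0.34 (adjusted p = 0.017) and in the Day 3 females by -2.05 ± 0.31 (adjusted p = 0.046) (edgeR). Sncg was higher in the Day 5 males by 1.59 ± 0.39 (adjusted p = 0.025), and by 1.83 ± 0.34 without the library labelled male Day 5 mouse 1. Of the secreted proteins, Cfd was lower in the Day 3 males by -1.90 ± 0.55 (adjusted p = 0.038) and Rbp4, the retinol carrier, by -2.94 ± 0.55 (adjusted p = 0.012). These values and the Day 3 male value of Adig include male Day 0 mouse 4. Angptl4, an inhibitor of lipoprotein lipase, moved the other way, at 2.03 ± 0.25 (adjusted p = 0.011) in the Day 5 females. Lepr, the leptin receptor, was higher in males at Day 3 by 1.54 ± 0.30 (adjusted p = 0.013) and at Day 5 by 1.504 ± 0.39 (adjusted p = 0.027; 1.69 ± 0.38 without the library labelled male Day 5 mouse 1), while in females it was -0.19 ± 0.35 (adjusted p = 0.72) at Day 3.

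Of 17 genes of fatty acid and triglyceride synthesis tested, 4 were lower and 1 higher in the Day 3 males, 1 lower in the Day 2 females and 1 lower in the Day 5 females. Of all genes, 1.84% were lower and 1.87% higher in the Day 3 males, 0.883% lower in the Day 2 females and 0.0615% lower in the Day 5 females. Fasn, fatty acid synthase, was -2.89 ± 0.81 (adjusted p = 0.035) in the Day 3 males and -2.14 ± 0.52 (adjusted p = 0.054) in the Day 2 females. Acaca, acetyl-CoA carboxylase, was -2.39 ± 0.71 (adjusted p = 0.041) in the Day 3 males. The Day 3 male values of Fasn, Acaca and Lpl include male Day 0 mouse 4 as well. Pnpla3 was -2.20 ± 0.48 (adjusted p = 0.048) in the Day 2 females. Of the uptake genes, Lpl, lipoprotein lipase, was lower in the Day 3 males by -1.62 ± 0.26 (adjusted p = 0.0082), and Gpihbp1, which anchors it on capillaries, in the Day 3 females by -1.78 ± 0.34 (adjusted p = 0.046). None of the 11 other lipid droplet and lipolysis genes was called by edgeR in any of the 6 comparisons with Day 0.

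Other markers in the same libraries varied with day and sex. The 8 endothelial markers, a source of Fabp4 outside fat, summed to 481 to 569.8 CPM in the Day 0 females and 392 to 539 CPM in the Day 3 females, and to 454 to 503, 558 to 596 and 424 to 1227 CPM in the Day 0, Day 3 and Day 5 males. The 8 macrophage markers summed to 129 to 194 CPM in the Day 0 males and 89.2 to 113 CPM in the Day 3 males. The 8 adrenal cortex markers, from a gland that lies in the same fat, summed to 4.86 to 340.2 CPM in the Day 0 females, 3.58 to 5.88 at Day 2, 28.6 to 2250.4 at Day 3 and 552 to 1459 at Day 5. In the Day 5 males they summed to 36.9 to 174 CPM. The 6 brown adipocyte markers, which share genes with the set, summed to 123 to 227 CPM in the Day 0 females and 21 to 38.9 CPM in the Day 5 females. The 8 white adipocyte markers, which share genes with the set as well, summed to 469 to 1145 and 278 to 1072 CPM in these groups. How far these tissues account for the fat genes was not tested.

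**Figure D5:**
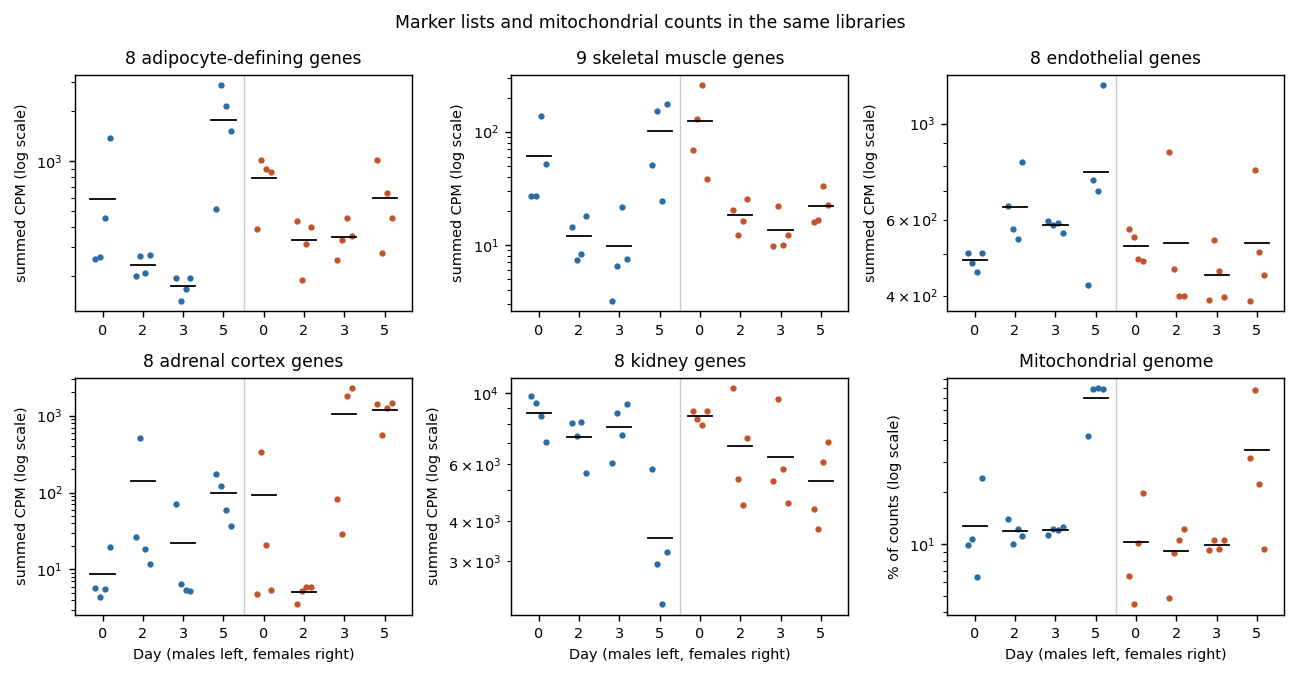
Summed CPM of 5 marker lists (log axes) and the percentage of counts from the mitochondrial genome in each mouse, with black lines for means of 4 mice. Adipocyte-defining and skeletal muscle genes are low at Day 2 and Day 3 and high in the Day 5 males, where kidney genes are lowest and mitochondrial counts reach 79.8%, while adrenal cortex genes are highest in the Day 3 and Day 5 females.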

How the data were processed

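Kidney RNA of 32 mice was sequenced as paired-end reads of 150 bases. The authors deposited a table of raw counts and one of FPKM for the same libraries. The deposited FPKM are counts per kb of gene scaled to an effective library size, not to the total count, and they were used here only to compare genes per length within a library. The submitters' processing notes name HTSeq, DESeq2 and the build GRCm39, while the paper's methods name GRCm38. Of 54409 genes shared with GENCODE M21 (GRCm38), 98.3% had the same position in the deposited tables, including 9 of the 10 genes described, so coordinates are given as GRCm38. The aligner is not given in the sources used here.

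Samples were grouped by the sex and day of their titles. The tool for counts was edgeR 4.0.16 (R 4.3.3) with TMM factors, filterByExpr and the quasi-likelihood test, each contrast fitted on its own groups, with Benjamini-Hochberg adjustment over all genes tested. A gene was called at an adjusted p below 0.05 with a log2 fold change beyond 1.5 in size, the thresholds of the study. CPM used TMM factors over all 32 libraries, and log2 CPM a prior count of 2. Ratios used counts plus 0.5. Correlations used 100000 permutations within groups. Each mouse is 1 library, and no libraries held identical counts. The alternatives were DESeq2 1.42.0 (its size factors, and its Wald test), limma 3.58.1 voom with sample weights, no or a stricter filter on low counts, 1 fit over all groups, a replicate block, a fold threshold of 1, no mitochondrial genes, FPKM plus 0.1 for ratios, and each mouse left out. The scripts were tested on simulated data. The 10 genes, the lists of other fat genes and markers and the tests were chosen with earlier results of these data known. Named among the other fat genes are up to 3 per role with the most calls against Day 0, and beside Adipoq, Ucp1 and Thrsp the 5 protein-coding genes most like each, of which 1 is not reported here. No sequence is printed for Cidea, Fabp4 and Car3.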

Additional observations from a re-analysis of the deposited data

Results flagged for a closer look

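Within groups of 4 mice, 6 of 88 combinations of a group with a gene or with the ratio of Ucp1 to Adipoq held 1 value far from the other 3 on the log2 scale, where chance alone gives about 5%. Male Day 0 mouse 4 was far above its group for Cidea (99.6 CPM) and Car3 (951 CPM). Female Day 5 mouse 2 was far below its group for Plin1 (9.98 CPM) and Car3 (174 CPM), and its mitochondrial counts, at 77.9% of the library, were the highest among the females. Lep in female Day 2 mouse 2 (3.46 CPM) lay far above the other 3 mice. Ucp1 in female Day 3 mouse 4 (5.38 CPM) lay far below them.

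The values of Retn lay on opposite sides of Day 0 in the sexes at Day 5: all 4 males were above the male Day 0 mean of log2 CPM and all 4 females below the female Day 0 mean, with a male minus female difference of the 2 changes of 2.83. With edgeR and all mice neither sex was called there, and the ranges overlapped with Day 0. Against Day 0, the Day 5 males were called with the DESeq2 Wald test, limma and 1 fit over all 8 groups. They were also called without male Day 0 mouse 4 and without the library labelled male Day 5 mouse 1. The interaction fitted with edgeR gave 2.81 ± 0.84 for the same difference and did not call it. Since the change from Day 0 was used to choose Retn, the difference was not tested independently. In that interaction Retn was called with DESeq2 and limma, and without the library labelled male Day 5 mouse 1.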

How the results depend on the processing

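Counts are of genes called, with the count given in the report after the word against. The deposited library sizes set the precision, and Lep had the fewest counts of the 10 genes, 12 to 275 per library. DESeq2's size factors within edgeR changed none of these counts by over 1.5 times. With the Wald test of DESeq2, the number of the 10 genes called was 3 (against 1) for the Day 2 males, 1 (against 0) for the Day 5 males, 6 (against 0) for the sexes at Day 5 and 4 (against 0) for the sex difference of the change to Day 5 and the number of other fat genes called was 9 (against 0) for the Day 2 males, 4 (against 2) for the Day 5 males, 8 (against 4) for the Day 2 females and 7 (against 2) for the Day 5 females. Without a filter on low counts, the number of the 10 genes called was 0 (against 1) for the Day 2 males and the number of other fat genes called was 7 (against 12) for the Day 3 males and 5 (against 2) for the Day 5 females. With at least 10 counts required in every library, the number of the 10 genes called was 2 (against 1) for the Day 2 males and the number of other fat genes called was 7 (against 4) for the Day 2 females. With 1 fit over all 8 groups, the number of the 10 genes called was 3 (against 1) for the Day 2 males, 8 (against 5) for the Day 3 males, 1 (against 0) for the Day 5 males, 0 (against 2) for the sexes at Day 3, 5 (against 0) for the sexes at Day 5 and 3 (against 0) for the sex difference of the change to Day 5 and the number of other fat genes called was 7 (against 0) for the Day 2 males, 5 (against 2) for the Day 5 males, 9 (against 4) for the Day 2 females and 6 (against 2) for the Day 5 females. With the mouse number as a replicate block, the number of the 10 genes called was 0 (against 1) for the Day 2 males, 1 (against 5) for the Day 3 males and 0 (against 3) for the Day 3 females and the number of other fat genes called was 2 (against 12) for the Day 3 males, 2 (against 4) for the Day 2 females, 0 (against 4) for the Day 3 females and 1 (against 2) for the Day 5 females. With limma voom and sample quality weights, the number of the 10 genes called was 2 (against 1) for the Day 2 males, 3 (against 5) for the Day 3 males, 9 (against 0) for the Day 5 males, 1 (against 0) for the sexes at Day 0, 1 (against 0) for the sexes at Day 2, 8 (against 0) for the sexes at Day 5, 1 (against 0) for the sex difference of the change to Day 3 and 7 (against 0) for the sex difference of the change to Day 5 and the number of other fat genes called was 4 (against 0) for the Day 2 males, 6 (against 12) for the Day 3 males, 25 (against 2) for the Day 5 males, 12 (against 4) for the Day 2 females, 10 (against 4) for the Day 3 females and 9 (against 2) for the Day 5 females. Without the mitochondrial genes, the number of other fat genes called was 1 (against 2) for the Day 5 males. With an absolute log2 fold change over 1, the number of other fat genes called was 5 (against 2) for the Day 5 males. With both Day 0 libraries of mouse 4 left out, an alternative chosen after seeing the data, the number of the 10 genes called was 1 (against 0) for the sexes at Day 0 and 3 (against 0) for the sex difference of the change to Day 5. Leaving out 1 mouse at a time, the number of the 10 genes called ranged from 0 to 3 for the Day 2 males, 1 to 8 for the Day 3 males, 0 to 8 for the Day 5 males, 1 to 4 for the Day 2 females, 0 to 4 for the Day 3 females, 1 to 2 for the Day 5 females, 0 to 1 for the sexes at Day 0, 0 to 7 for the sexes at Day 5 and 0 to 3 for the sex difference of the change to Day 5. Leaving out 1 mouse at a time, the number of other fat genes called ranged from 0 to 5 for the Day 2 males, 2 to 13 for the Day 3 males, 0 to 16 for the Day 5 males, 0 to 10 for the Day 2 females, 0 to 10 for the Day 3 females and 0 to 8 for the Day 5 females. For the Day 5 males and for the sexes at Day 5 the highest counts among the 10 genes came without male Day 0 mouse 4 and without the library labelled male Day 5 mouse 1, respectively, and for the sexes at Day 0 without male Day 0 mouse 4. The male minus female log2 ratio of Ucp1 to Adipoq at Day 0 ranged from -1.55 to -0.75 when 1 mouse was left out, with -1.55 without male Day 0 mouse 4, and at Day 3 it ranged from -0.87 to 0.076, the positive end being without male Day 3 mouse 1. Over the 16 libraries of Day 2 and Day 3 alone, the correlation with Adipoq was no longer past its permutation p for Lep (0.049), Ucp1 (0.404), Cidea (0.330), Cidec (0.321) and Thrsp (0.460), and without the library labelled male Day 5 mouse 1 that of Lep was 0.50 (permutation p = 0.051). Of the single-gene differences from Day 0, recomputed under each alternative, 918 stayed within the spread between mice and 42 moved by more than that, none of those called reversed, and of 240 combinations of a call with an alternative 79 lost the call. Of the single-gene calls in the other comparisons, 190 stayed under an alternative and 2 were lost, Lep and Retn between the sexes at Day 3 with 1 fit over all 8 groups. Over the alternatives the share of all genes called ranged from 0.0312% to 3.33% for the Day 2 males, 0.333% to 5.93% for the Day 3 males and 3.28% to 16.5% for the Day 5 males. In females it was 0.125% to 10.7% at Day 2, 0% to 11.4% at Day 3 and 0.0483% to 4.17% at Day 5. For the sexes it was 0% to 3.07% at Day 0, 0.472% to 2.16% at Day 2, 0.642% to 3.18% at Day 3 and 0% to 9.28% at Day 5. For the sex difference of the change it was 0% to 1.58% to Day 3 and 0% to 14.5% to Day 5. The cause of these changes was not tested. Nothing in the labels says that mice with the same number in different groups were paired. Over 112 same-number comparisons, the correlation of their deviations from the group means ran from -0.42 to 0.48, was over 0.1 in 18, and was the best match in 24. Between the sexes at Day 0 it was 0.27, -0.07, 0.44 and 0.48 for mice 1 to 4, the best match for mice 1, 3 and 4, and with the replicate block 2 of the 10 genes had a positive male minus female difference there (median -0.25) against 7 without it (median 0.11), with none called in either fit.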
